A study of Mus musculus with 4 samples.

Results

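The genes described here encode ATPases that pump ions across membranes or move lipids from one side of a membrane to the other. They were chosen by symbol alone, from *Atp1*, *Atp2*, *Atp6*, *Atp7*, *Atp8*, *Atp9*, *Atp10*, *Atp11*, *Atp12* and *Atp13*, without the mitochondrial ATP synthase genes. The rule found 53 of the 12814 genes in the table. Of these, 30 encode P-type catalytic subunits, 20 encode parts of the vacuolar proton pump (V-ATPase) and 3 encode beta subunits of the Na,K-ATPase. The gene annotation of the same genome build names 65 genes by this rule, and the other 12 (among them *Atp10a*, *Atp1a4*, *Atp1b4*, *Atp2a1*, *Atp6ap1l*, *Atp6v0d2*, *Atp6v1c2*, *Atp6v1e2*, *Atp6v1g3*, *Atp8b3* and *Atp8b5*) were not analysed here.

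RNA was sequenced from cells sorted out of the cochlea, the organ of hearing, and the vestibular system, the organ of balance, of newborn mice that carried *Atoh1/nGFP* on the C57BL/6 strain. All 4 populations carried this transgene, in which *Atoh1* control drives a nuclear green fluorescent protein (GFP) in hair cells (HCs), the mechanosensory cells of the ear. HCs were sorted as cells with both GFP and the epithelial surface protein CD326, and epithelial non-sensory cells (ENSCs) as cells with CD326 and without GFP. Cells of several mice were pooled, and each population gave 1 column of values: cochlear HCs, cochlear ENSCs, vestibular HCs and vestibular ENSCs. ENSCs are a mixture of every epithelial cell type of the organ other than HCs. The study's design text speaks of triplicates, and whether a column is 1 library or a mean of several could not be told; each column is called a library here. With 1 column per population no difference could be set against a replicate spread, no test between populations was possible, and no p-values are given.

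The values are read counts per gene after quantile normalization and a floor of 20, called values below, so each column had the same sum of 7830343, the same median of 120 and 1412 genes at the floor. The depth of each library is therefore unknown. Low values were tied: up to 24.25 in cochlear HCs, 22.75 in cochlear ENSCs, 30.5 in vestibular HCs and 20 in vestibular ENSCs, the order of genes carried no information, and between 6 and 8 of the 53 genes lay within this range in each library. A ratio against a value in that range is given as a lower bound ("at least"), measured from the top of the range. A ratio of at least 3 either way, computed on the values as deposited, was counted as a difference. All 10 HC marker genes examined (*Pou4f3*, *Atoh1*, *Myo7a*, *Gfi1*, *Tmc1*, *Barhl1*, *Espn*, *Lhx3*, *Myo6* and *Otof*) exceeded 3-fold in HCs over ENSCs in each of the organs. In these sorted pools fewer cells of a type and less RNA per cell cannot be told apart.

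P-type ATPases take the terminal phosphate of ATP onto an aspartate of the pump itself and use that bond to drive a cycle of shape changes that carries the cargo across. Calcium pumps of the plasma membrane (PMCA), the endoplasmic reticulum (SERCA) and the Golgi (SPCA), the Na,K-ATPase, the copper pumps, the flippases that move phospholipids to the cytosolic leaflet, and the less studied P5 pumps all work this way. The V-ATPase instead turns a rotor, with a cytosolic V1 part that splits ATP and a membrane V0 part that lets protons through, and acidifies lysosomes and synaptic vesicles. In the inner ear PMCA2, the product of *Atp2b2*, clears calcium from the stereocilia of HCs, and the Na,K-ATPase of strial marginal cells and vestibular dark cells powers the secretion of the potassium-rich endolymph.

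The aspartate opens a signature of 5 residues (aspartate, lysine, threonine, glycine and threonine), which was found in the coding sequence of 29 of the 29 P-type members with a coding transcript and of 0 of the 23 V-ATPase and beta-subunit members. The windows below show what the rule by name groups together: 3 PMCA isoforms and 2 flippases that were high in opposite populations. Each runs 5′ to 3′ on the coding strand, lies within 1 coding exon, has 57 nt and shows the 5 motif codons in capitals. Coordinates are of mm9.
*Atp2b1*, chr10:98462430-98462486, plus strand, exon 10 of 21: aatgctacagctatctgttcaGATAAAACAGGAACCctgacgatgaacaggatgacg
*Atp2b2*, chr6:113739876-113739932, minus strand, exon 13 of 24: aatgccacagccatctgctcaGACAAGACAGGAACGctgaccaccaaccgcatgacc
*Atp2b4*, chr1:135628369-135628425, minus strand, exon 9 of 20: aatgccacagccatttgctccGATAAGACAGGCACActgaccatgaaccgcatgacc
*Atp8b4*, chr2:126223358-126223414, minus strand, exon 13 of 28: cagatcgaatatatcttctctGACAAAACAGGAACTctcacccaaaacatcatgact
*Atp10b*, chr11:43015617-43015673, plus strand, exon 8 of 22: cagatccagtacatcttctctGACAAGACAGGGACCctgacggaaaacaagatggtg
The *Atp2b2* window shared 50 of 57 bases with that of *Atp2b4*, 45 with that of *Atp2b1*, 37 with that of *Atp8b4* and 34 with that of *Atp10b*. These stretches are alike but not identical, and the share of 50-nt stretches of each transcript with an exact copy elsewhere in the genome was 5.80% for *Atp2b1*, 0.0997% for *Atp2b2* and 0.545% for *Atp2b3*.

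Most of the 53 genes were expressed broadly. In 45 of them (84.9%) the value reached 100 in at least 1 library, against 71.7% of all genes, and in 31 (58.5%) it did so in all 4, against 38.5%. Of the members, 8 were past 3-fold upwards and 3 downwards in cochlear HCs relative to cochlear ENSCs, a contrast in which 17.6% of all genes passed (8.39% upwards and 9.20% downwards). Vestibular HCs relative to vestibular ENSCs had 9 members upwards and 9 downwards, and 28.1% of all genes passed (13.8% upwards and 14.3% downwards). The members had a median log2 ratio of 0.08 (cochlea) and 0.00 (vestibular system), and all genes one of 0.00 and -0.00.

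In each of the organs the same 7 members stood 3-fold or more above ENSCs in HCs (*Atp2b2*, *Atp2b3*, *Atp2a3*, *Atp6v0a1*, *Atp8a2*, *Atp8b4* and *Atp10d*), which is 13.2% of the members beside 4.99% of all genes. *Atp10b* was the 1 member lower in HCs in both organs, which is 1.89% beside 4.66%. A further 8 members were lower in HCs in the vestibular system alone (15.1% beside 9.68% of all genes) and 2 in the cochlea alone (3.77% beside 4.54%), and 27 were called in none of the 4 contrasts (50.9% beside 57.9%). With *Atp10b*, 9 members were lower in vestibular HCs, which became 4 with a floor of 50, 4 with 20 added to every value and 6 after the length and GC correction. Over all genes the count was 1837 as deposited, and 1352, 1297 and 1303 under these settings in the same order. The HC to ENSC ratios of the 2 organs come from separate libraries, whereas each library also enters a contrast between organs.

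**Figure D1:**
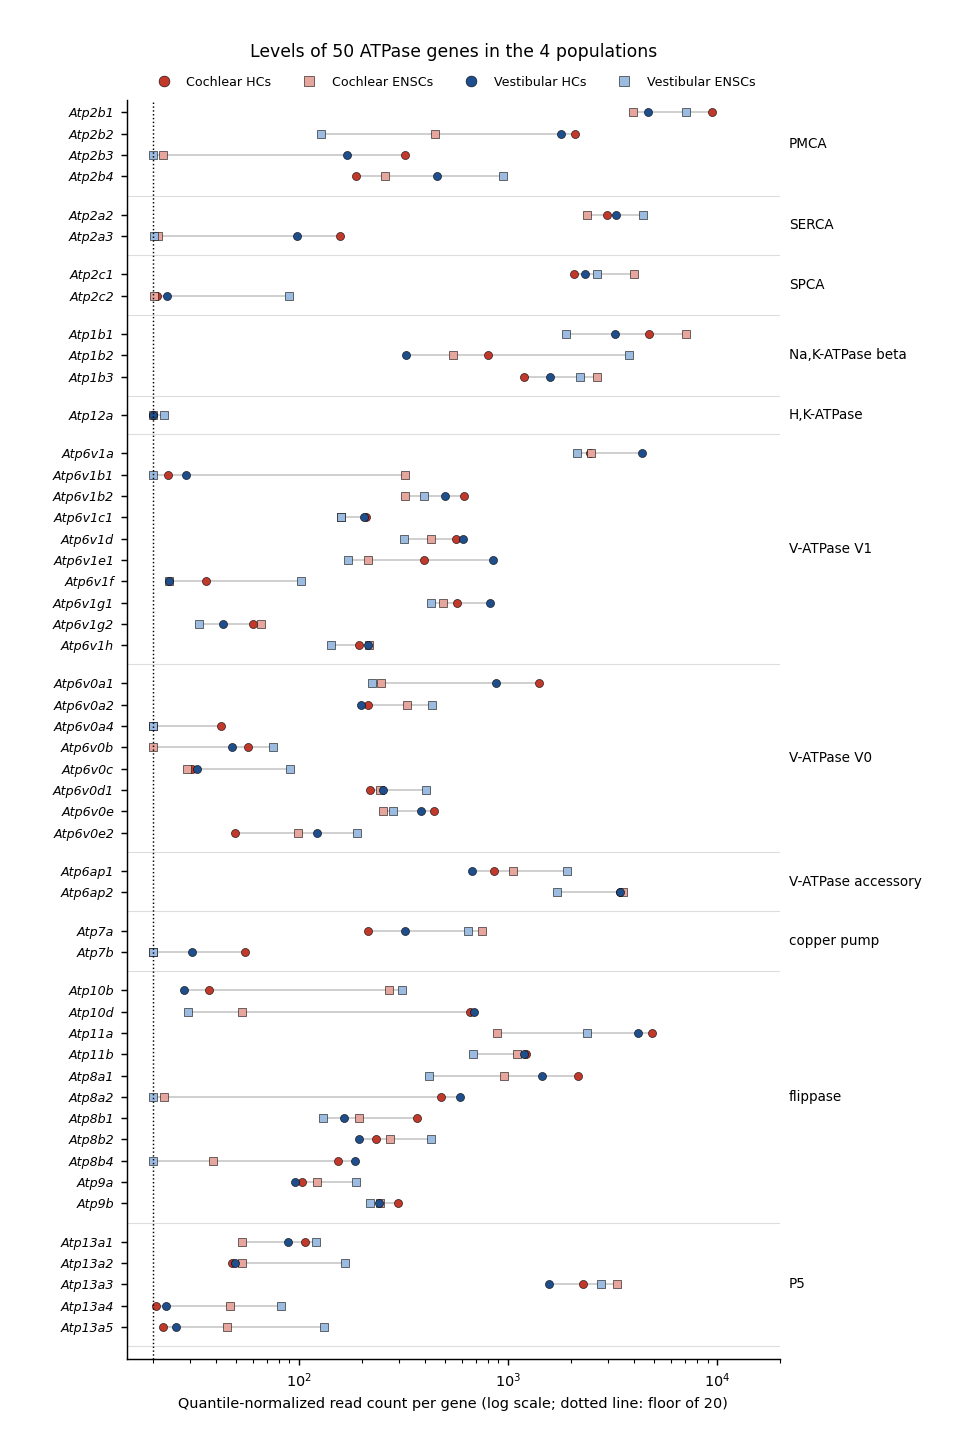
Value of 50 of the 53 ATPase genes (rows, grouped by pump class) in the 4 libraries, on a log axis in quantile-normalized read counts per gene, 1 point per library with no replicates. The grey line joins the lowest and the highest library, and the dotted line marks the floor of 20. HC points (circles) lie to the right of ENSC points (squares) for genes such as *Atp8a2* and *Atp2b3*, and the vestibular ENSC point lies to the right for *Atp1b2* (3806). Values are not divided by gene length, so rows are not to be ranked against each other.

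**Figure D2:**
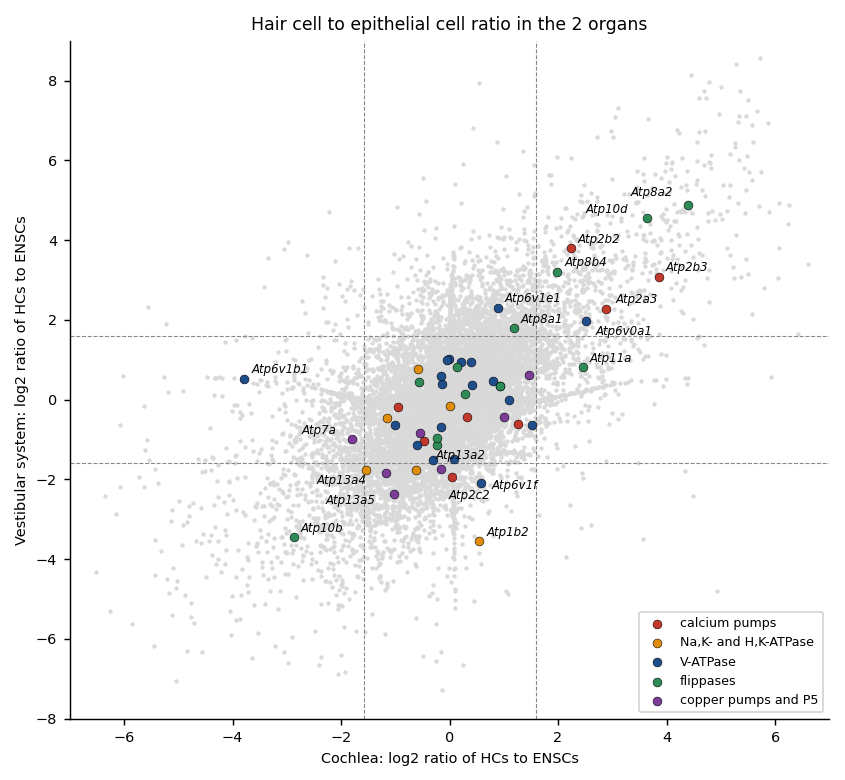
log2 ratio of HCs to ENSCs in the cochlea (horizontal) and the vestibular system (vertical), 1 point per gene, with all 12814 genes in grey and the 53 ATPase genes coloured by class. Dashed lines mark a ratio of 3, and most members past it in either organ are named. The 7 members in the upper right corner are those higher in HCs in both organs.

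Among the calcium pumps, HCs differed from ENSCs in *Atp2b2*, *Atp2b3* and *Atp2a3*, and the broadly expressed isoforms *Atp2b1*, *Atp2a2* and *Atp2c1* stayed under 3-fold in every contrast. Of the 8 calcium pump genes, 3 were higher and 0 lower in cochlear HCs, and 3 were higher and 1 lower in vestibular HCs. *Atp2b2* (chr6:113695663-113992607, minus strand), whose loss causes deafness and imbalance in deafwaddler mice, had a value of 2099.75 in cochlear HCs, 447.5 in cochlear ENSCs, 1783 in vestibular HCs and 127.75 in vestibular ENSCs. Both HC libraries were high, and the 2 ENSC libraries differed from each other. The HC value was 4.69-fold higher in the cochlea and 14.0-fold higher in the vestibular system, and cochlear ENSCs were 3.50-fold above vestibular ENSCs.

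*Atp2b3* (chrX:70748425-70816344, plus strand), which encodes a PMCA best known from neurons, had a value of 321.75 in cochlear HCs, 22.25 in cochlear ENSCs, 169.25 in vestibular HCs and 20 in vestibular ENSCs. Both ENSC libraries lay within their tied low range, so cochlear HCs were higher by at least 14.1-fold and vestibular HCs by at least 8.46-fold. *Atp2b1*, the widely expressed PMCA, had a value of 9427 in cochlear HCs, 3957.25 in cochlear ENSCs, 4661.75 in vestibular HCs and 7080.5 in vestibular ENSCs. It was 2.38-fold higher in HCs in the cochlea and 1.52-fold lower in HCs in the vestibular system, both under the threshold. *Atp2b4*, the PMCA of red cells and sperm, had a value of 187.25 in cochlear HCs, 258.75 in cochlear ENSCs, 456.25 in vestibular HCs and 941 in vestibular ENSCs. Its 2 vestibular libraries were above its 2 cochlear ones, and between the ENSC libraries the vestibular one was 3.64-fold higher.

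Per kb of exon, *Atp2b1* was the leading PMCA gene in all 4 libraries, with 82.4% of the summed PMCA value per kb in cochlear HCs, 88.1% in cochlear ENSCs, 72.2% in vestibular HCs and 89.2% in vestibular ENSCs. *Atp2b2* came next in HCs, with 12.2% (cochlea) and 18.3% (vestibular system), and held 6.61% and 1.07% in the ENSC libraries. In vestibular ENSCs *Atp2b4* held the second place with 9.38%. The share of *Atp2b1* includes any reads from its copies elsewhere in the genome.

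**Figure D3:**
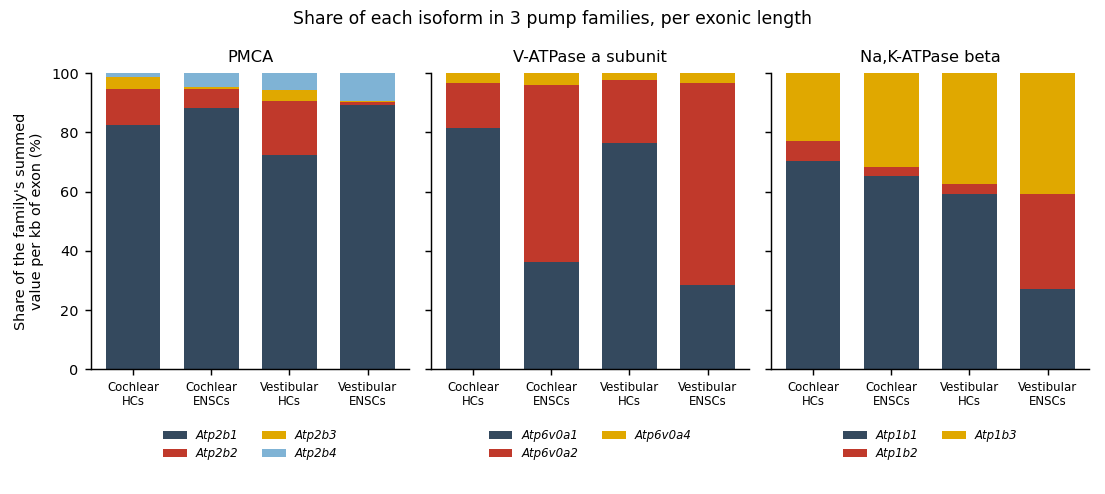
Share of each isoform in the summed value per kb of exon of 3 families (PMCA genes, V-ATPase a-subunit genes and Na,K-ATPase beta-subunit genes), in percent, 1 stacked bar per library with no replicates. *Atp2b1* leads the PMCA bar in every library, the a-subunit bars are led by *Atp6v0a1* in HCs and *Atp6v0a2* in ENSCs, and the beta-subunit bar of vestibular ENSCs holds 32.2% *Atp1b2*.

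*Atp2a3* (chr11:72774671-72806546, plus strand), which encodes SERCA3, had a value of 157.25 in cochlear HCs, 21.25 in cochlear ENSCs, 98 in vestibular HCs and 20.25 in vestibular ENSCs. Cochlear HCs were higher by at least 6.91-fold and vestibular HCs by 4.84-fold. With a floor of 50, or with 20 added to every value, the vestibular log2 ratio of 2.27 became 0.97 or 1.55, both under the threshold. *Atp2a2*, which encodes the SERCA of most tissues, had a value of 2964.75 in cochlear HCs, 2388.25 in cochlear ENSCs, 3275.5 in vestibular HCs and 4413.75 in vestibular ENSCs, and held between 94.6% and 99.5% of the SERCA value per kb. The gene with the steep difference was thus the minor SERCA gene in every library.

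*Atp2c1*, which loads the Golgi with calcium and manganese, had a value of 2072.5 in cochlear HCs, 4012.25 in cochlear ENSCs, 2330.75 in vestibular HCs and 2660.75 in vestibular ENSCs. Its HC value was 1.94-fold lower in the cochlea and 1.14-fold lower in the vestibular system. *Atp2c2*, its secretory-tissue relative, had a value of 21 in cochlear HCs, 20.25 in cochlear ENSCs, 23.25 in vestibular HCs and 89.75 in vestibular ENSCs. Only the vestibular ENSC library was above its tied low range, which gives at least 2.94-fold over vestibular HCs and at least 3.95-fold over cochlear ENSCs. Both calls ended with a floor of 50, with 20 added and after the length and GC correction.

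Of 7 listed partners of calcium pumps, 6 were analysed, with 2 higher and 0 lower in cochlear HCs and 3 higher and 1 lower in vestibular HCs. *Pln*, which encodes the SERCA inhibitor phospholamban, had a value of 133.25 in cochlear HCs, 29.75 in cochlear ENSCs, 129.25 in vestibular HCs and 20 in vestibular ENSCs, 4.48-fold higher in cochlear HCs and at least 6.46-fold higher in vestibular HCs. *Calm2*, a gene of the PMCA activator calmodulin, was the 1 calcium pump partner that differed between the HC libraries, with 9695.75 in cochlear and 30526.75 in vestibular HCs. Neuroplastin and basigin are the obligatory subunits that carry PMCA pumps to the membrane, and their genes moved in opposite directions in the vestibular system. *Nptn* had a value of 3071 in cochlear HCs, 3431.25 in cochlear ENSCs, 4269.25 in vestibular HCs and 1242.25 in vestibular ENSCs, 3.44-fold higher in vestibular HCs. *Bsg* had a value of 449.5, 789, 361.75 and 3878.75 in the same order, 10.7-fold lower in vestibular HCs than in vestibular ENSCs and 4.92-fold lower in cochlear than in vestibular ENSCs.

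Because *Atp2b2*, *Atp2b3* and *Atp8a2* are also expressed in neurons, markers of neurons were examined. Of 6 listed, 4 were analysed, and *Nefl*, *Nefm* and *Snap25* exceeded 3-fold in HCs over ENSCs of each organ. Their values with *Stmn2* summed to 5697.75 in cochlear HCs, 252.5 in cochlear ENSCs, 6703.75 in vestibular HCs and 80 in vestibular ENSCs. *Nefl*, for example, was 58.1-fold higher in cochlear HCs. *Stmn2* had a value of 30.75 in cochlear HCs, 81.5 in cochlear ENSCs, 22 in vestibular HCs and 20 in vestibular ENSCs. By the study's methods, HCs had to carry CD326 besides GFP so that neuronal cells with GFP were left out. The part of neuronal RNA in the values of the pumps was not tested.

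Among the beta subunits of the Na,K-ATPase, the vestibular ENSC library stood apart. None of the 3 genes was past 3-fold between HCs and ENSCs of the cochlea, and 1 passed it towards ENSCs of the vestibular system. *Atp1b2* (chr11:69413238-69419444, minus strand), whose product pairs with the catalytic subunit in the endolymph-secreting cells of the ear, had a value of 798 in cochlear HCs, 545.25 in cochlear ENSCs, 326 in vestibular HCs and 3806 in vestibular ENSCs. The vestibular ENSC library stood above all others, 11.7-fold over vestibular HCs and 6.98-fold over cochlear ENSCs, while the cochlear HC value was 1.46-fold above that of cochlear ENSCs. *Atp1b1* (chr1:166367398-166388486, minus strand), the commonest beta subunit, had the opposite order among ENSCs, with 4737.25 in cochlear HCs, 7107 in cochlear ENSCs, 3246.75 in vestibular HCs and 1902.5 in vestibular ENSCs. Cochlear ENSCs were 3.74-fold above vestibular ENSCs. *Atp1b3*, a further widely expressed beta subunit, had a value of 1189.75 in cochlear HCs, 2660.75 in cochlear ENSCs, 1592 in vestibular HCs and 2210 in vestibular ENSCs, and no contrast of it passed 3-fold.

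Per kb of exon, *Atp1b1* held 70.2% of the beta-subunit value in cochlear HCs, 65.4% in cochlear ENSCs, 59.1% in vestibular HCs and 27.1% in vestibular ENSCs. *Atp1b2* held 7.01%, 2.97%, 3.52% and 32.2% in the same order, and *Atp1b3*, of which 16.1% of 50-nt stretches had a copy elsewhere in the genome, held the rest. The H,K-ATPase gene *Atp12a*, a proton pump of colon and kidney, was at 20 in cochlear HCs, cochlear ENSCs and vestibular HCs and at 22.5 in vestibular ENSCs, so no ratio is given.

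Markers of vestibular dark cells and strial marginal cells were, like *Atp1b2*, high in vestibular ENSCs. Of 8 listed, 7 were analysed, and 6 of the 7 were at least 3-fold lower in vestibular HCs than in vestibular ENSCs and 4 at least 3-fold lower in cochlear than in vestibular ENSCs. Between cochlear HCs and ENSCs 3 of the 7 were at least 3-fold lower in HCs (median log2 ratio -1.43), where *Atp1b2* was 1.46-fold higher. *Kcne1* had a value of 24 in cochlear HCs, 139.25 in cochlear ENSCs, 29.5 in vestibular HCs and 670.5 in vestibular ENSCs, and *Esrrb* 27, 72.75, 29.75 and 1234.75 in the same order. *Bsnd* was above the tied low range in vestibular ENSCs alone, at 103.75. The 7 markers summed to 4919.25 in cochlear HCs, 18251.5 in cochlear ENSCs, 5436.75 in vestibular HCs and 15341.75 in vestibular ENSCs, and the cochlear sum is mostly *Slc12a2* at 15030.5. Markers of mesenchyme also differed, with sums over 5 analysed genes of 156, 4974, 219 and 3624 in the same order. The larger sum in cochlear ENSCs comes from *Ogn* (3231.5 against 2066.75 in vestibular ENSCs) and *Col1a2* (1618 against 443.25), while *Col1a1*, *Col3a1* and *Tbx18* were higher in vestibular ENSCs, and the median log2 ratio of cochlear to vestibular ENSCs was -1.45. The glial gene *Sox10* was at 1183 in vestibular ENSCs and 202.5 in cochlear ENSCs. The part of these cell types in the beta-subunit values was not tested.

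**Figure D4:**
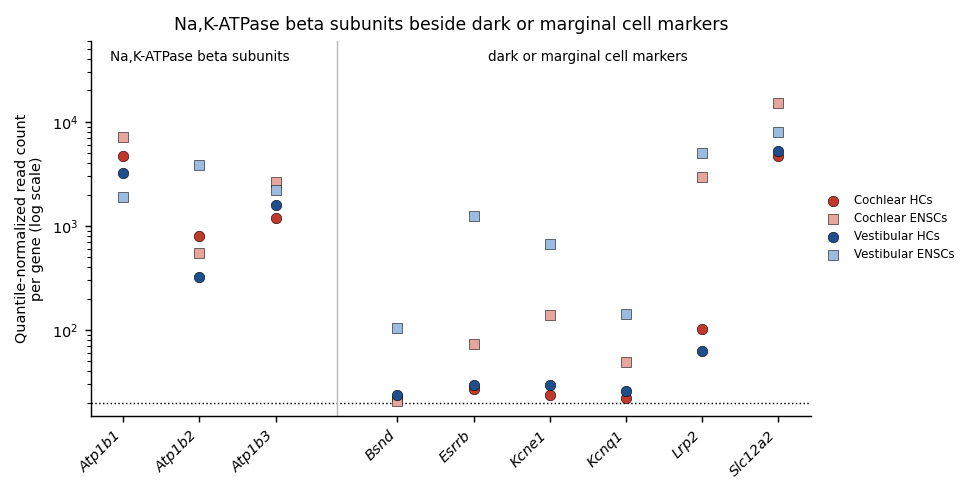
Values of the 3 Na,K-ATPase beta-subunit genes (left) and of 6 marker genes of vestibular dark cells and strial marginal cells (right) in the 4 libraries, in quantile-normalized read counts per gene on a log axis, 1 point per library with no replicates. The dotted line is the floor of 20. The vestibular ENSC library is the highest for *Atp1b2* and for 5 of the 6 markers.

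Of 11 listed Na,K-ATPase partners, 6 were analysed, with 0 higher and 2 lower in HCs in each organ. *Fxyd6*, a small regulator of the pump that is known from the inner ear, had a value of 23.75 in cochlear HCs, 412.5 in cochlear ENSCs, 29 in vestibular HCs and 67 in vestibular ENSCs. The cochlear HC value was at least 17.0-fold below that of ENSCs, and cochlear ENSCs were 6.16-fold above vestibular ENSCs. The related regulator gene *Fxyd1* was at 72.5 in cochlear and 117.25 in vestibular ENSCs, both under the column median of 120. These values were at least 2.99-fold and at least 3.84-fold above the HC value of the same organ, which lay within the tied low range. *Fxyd3* was at 42.5 in cochlear and 113.25 in vestibular ENSCs, the latter at least 3.71-fold above vestibular HCs. *Nkain1* was 3.69-fold higher in cochlear than in vestibular ENSCs, at 138.5 and 37.5.

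The V-ATPase genes differed little between HCs and ENSCs as a group, with exceptions in 1 subunit of V0 and 3 of V1. Of the 20 genes, 1 was higher and 1 lower in cochlear HCs, 2 were higher and 1 lower in vestibular HCs, and the median log2 ratio was 0.15 and 0.38. In the vestibular contrast the ratio was above 1 for 9 of the 10 V1 genes (median log2 ratio 0.55) and for 2 of the 8 V0 genes (median -0.64), where it was so for 6000 of all 12814 genes. After the length and GC correction it was above 1 for 9 of the V1 genes (median 0.49) and for 5 of the V0 genes (median 0.10). Of all genes, 6855 were then above 1, with the same median of 0.10, so the V0 genes turned to the direction of all genes. In the cochlear contrast the ratio was above 1 for 6 of the V1 and 5 of the V0 genes, and for 6081 of all genes. *Atp6v0a1* (chr11:100870766-100925033, plus strand), the membrane subunit that places the pump on synaptic vesicles and lysosomes, had a value of 1410.25 in cochlear HCs, 245.5 in cochlear ENSCs, 875.75 in vestibular HCs and 222.75 in vestibular ENSCs. It was 5.74-fold higher in cochlear HCs and 3.93-fold higher in vestibular HCs. The 2 other a-subunit genes analysed, named here to complete the family, did not pass 3-fold between HCs and ENSCs. *Atp6v0a2* had a value of 215 in cochlear HCs, 327.5 in cochlear ENSCs, 198 in vestibular HCs and 432.75 in vestibular ENSCs, and *Atp6v0a4* 42.5, 20, 20 and 20 in the same order. Per kb of exon, *Atp6v0a1* held 81.5% of the a-subunit value in cochlear HCs and 76.4% in vestibular HCs, and *Atp6v0a2* held 59.8% in cochlear ENSCs and 68.2% in vestibular ENSCs.

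*Atp6v1b1* (chr6:83693011-83708803, plus strand), the V1 subunit of acid-secreting epithelial cells whose loss in humans causes renal acidosis with deafness, was above the tied low range in 1 library. Its value was 23.5 in cochlear HCs, 323 in cochlear ENSCs, 28.75 in vestibular HCs and 20 in vestibular ENSCs. Cochlear ENSCs were at least 13.3-fold above cochlear HCs and at least 16.1-fold above vestibular ENSCs. *Slc26a4*, the 1 analysed gene of 4 listed for ionocytes of the endolymphatic sac type, had a value of 23.5 in cochlear HCs, 281.75 in cochlear ENSCs, 35.25 in vestibular HCs and 225.75 in vestibular ENSCs, so it was high in both ENSC libraries. The part of such cells in the *Atp6v1b1* value was not tested.

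*Atp6v1e1*, a stalk subunit of V1, had a value of 396 in cochlear HCs, 214.25 in cochlear ENSCs, 845.75 in vestibular HCs and 171.75 in vestibular ENSCs. It was 4.92-fold higher in HCs in the vestibular system and 1.85-fold higher in the cochlea. *Atp6v1f*, another V1 subunit, had a value of 35.75 in cochlear HCs, 24 in cochlear ENSCs, 24 in vestibular HCs and 102.75 in vestibular ENSCs. Vestibular ENSCs were at least 3.37-fold above vestibular HCs and 4.28-fold above cochlear ENSCs, with 29.2% of the 50-nt stretches of its transcript copied elsewhere in the genome. Its log2 ratio, -2.10 in both contrasts, fell short of the threshold with a floor of 50 (-1.04 in both), with 20 added (-1.48 in both) and after the length and GC correction (-1.11 and -1.35). *Atp6v1a*, the catalytic subunit, named for the highest single deposited value of its class (in vestibular HCs and not per length), had 2476.5 in cochlear HCs, 2489.5 in cochlear ENSCs, 4366.5 in vestibular HCs and 2143 in vestibular ENSCs. The other 15 V-ATPase genes had log2 ratios of HCs to ENSCs between -1.01 and 1.52 in the cochlea and between -1.51 and 1.001 in the vestibular system. Between the ENSC libraries, 2 of these passed 3-fold at low values and are named after their values were seen. *Atp6v0b* was at 20 in cochlear and 75 in vestibular ENSCs, and *Atp6v0c*, of which 84.7% of stretches had a copy elsewhere, at 29 and 90.75. Neither passed with a floor of 50, with 20 added or after the length and GC correction.

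All 11 listed V-ATPase partners were analysed, with 1 higher and 0 lower in cochlear HCs and 3 higher and 1 lower in vestibular HCs. *Dmxl2*, which encodes a rabconnectin that joins V1 to V0 on synaptic vesicles, had a value of 1876.5 in cochlear HCs, 397 in cochlear ENSCs, 2100.75 in vestibular HCs and 375.5 in vestibular ENSCs. It was 4.73-fold and 5.59-fold higher in HCs, and its order over the libraries put both HC libraries first, as for *Atp6v0a1*. *Oxr1*, of a protein family that takes V1 off V0, had a value of 8422, 4473.25, 14789.5 and 1731.75 in the same order, 8.54-fold higher in vestibular HCs and 1.88-fold higher in cochlear HCs. The assembly factor gene *Tmem199* was 4.63-fold higher in vestibular HCs (100.75 against 21.75, near the floor), and *Rnasek* was 3.25-fold lower there (146.5 against 476). Partner genes were not recomputed with other floors, which limits calls against low values such as those of *Tmem199*, *Pln*, *Atox1* and *Fxyd1*.

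Of the copper pumps, *Atp7a*, whose loss causes Menkes disease, had a value of 214 in cochlear HCs, 746.75 in cochlear ENSCs, 321.25 in vestibular HCs and 641.75 in vestibular ENSCs. Both ENSC libraries were above both HC libraries, by 3.49-fold in the cochlea and 1.998-fold in the vestibular system. *Atp7b*, the Wilson disease gene, had a value of 55 in cochlear HCs, 20 in cochlear ENSCs, 30.75 in vestibular HCs and 20 in vestibular ENSCs, at least 2.42-fold higher in cochlear HCs. All 5 listed copper-handling genes were analysed, with 0 higher in HCs and 1 lower in the cochlea and 2 lower in the vestibular system. *Atox1*, the chaperone that hands copper to both pumps, was at 27.5 in cochlear HCs, 96.5 in cochlear ENSCs, 25 in vestibular HCs and 116.25 in vestibular ENSCs, 3.51-fold and at least 3.81-fold lower in HCs.

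On the values as deposited, the highest ratio of HCs to ENSCs among the 53 genes was that of a flippase gene, *Atp8a2*, in each organ. This rank depended on the floor, since both ENSC values of *Atp8a2* were tied low values. With a floor of 50, *Atp10d* exceeded *Atp8a2* in both organs, and the calcium pump gene *Atp2b2* also exceeded it in the vestibular system. With 20 added to every value, *Atp8a2* stayed above both genes in each organ. Of the 12 flippase genes, 4 were past 3-fold towards HCs and 1 towards ENSCs of each organ, and the median log2 ratio was 0.60 (cochlea) and 0.62 (vestibular system). Summed per kb of exon, the 12 genes reached 1235 in cochlear HCs and 1060 in vestibular HCs, and 611 and 579 in the ENSC libraries. *Atp8a2* (chr14:60266368-60816016, minus strand), a flippase of phosphatidylserine whose loss causes axon degeneration in wabbler-lethal mice, had a value of 476 in cochlear HCs, 22.5 in cochlear ENSCs, 588 in vestibular HCs and 20 in vestibular ENSCs. Both ENSC libraries were within their tied low range, so HCs were at least 20.9-fold and at least 29.4-fold higher. Its paralogue *Atp8a1* had a value of 2160.75 in cochlear HCs, 953 in cochlear ENSCs, 1451.75 in vestibular HCs and 418.5 in vestibular ENSCs, 2.27-fold and 3.47-fold higher in HCs. The vestibular log2 ratio of *Atp8a1* was 1.79 as deposited and 1.18 after correction for gene length and GC content.

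*Atp8b4* (chr2:126146709-126326410, minus strand) had a value of 153.75 in cochlear HCs, 38.75 in cochlear ENSCs, 185 in vestibular HCs and 20 in vestibular ENSCs, 3.97-fold and at least 9.25-fold higher in HCs. With 20 added to every value its cochlear log2 ratio of 1.99 became 1.56, just under the threshold. *Atp11a* (chr8:12757014-12868728, plus strand), a flippase of phosphatidylserine and phosphatidylethanolamine linked to hereditary hearing loss in humans, had a value of 4863.25 in cochlear HCs, 887 in cochlear ENSCs, 4175.75 in vestibular HCs and 2376.25 in vestibular ENSCs. It was 5.48-fold higher in HCs in the cochlea and 1.76-fold higher in the vestibular system, and vestibular ENSCs were 2.68-fold above cochlear ENSCs. Per kb of exon it was the leading flippase gene in cochlear HCs, vestibular HCs and vestibular ENSCs, with 35.3%, 35.3% and 36.8% of the family value, and held 13.02% in cochlear ENSCs, where *Atp11b* led with 27.2%. Of the flippase genes not named by the rule, 5 had log2 ratios of HCs to ENSCs between -0.24 and 0.92 in the cochlea and between -1.14 and 0.81 in the vestibular system.

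The 2 *Atp10* genes analysed, relatives that move glucosylceramide and phosphatidylcholine, lay at opposite ends. *Atp10b* (chr11:42963379-43075787, plus strand) had a value of 37 in cochlear HCs, 270.5 in cochlear ENSCs, 28.25 in vestibular HCs and 309.75 in vestibular ENSCs, 7.31-fold lower in cochlear HCs and at least 10.2-fold lower in vestibular HCs. *Atp10d* (chr5:72594568-72690014, plus strand) had a value of 659.75 in cochlear HCs, 53.25 in cochlear ENSCs, 690.75 in vestibular HCs and 29.5 in vestibular ENSCs, 12.4-fold and 23.4-fold higher in HCs. In each organ the HC library was thus lower for *Atp10b* and higher for *Atp10d*, calls shared by 4.66% and 4.99% of all genes. The exons of *Atp10b* overlap 705 nt of unnamed gene models on the opposite strand, and without the strand setting of the counting such reads cannot be told apart.

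*Atp10d* is listed in the table and in the annotation as a long non-coding RNA, not as a protein-coding gene. C57BL/6 mice are known to carry a premature stop codon in it. In the longest transcript with the pump motif, of 23 exons, the frame that holds this signature at codon 491 from the first ATG ended at a stop after 816 codons, in exon 12, and a further 652 codons without a stop followed in the same frame. The complete *Atp10b* product has 1474 residues. The stop is shown because it separates the RNA level, which was measured, from any full-length pump, with the stop codon in capitals.
*Atp10d*, chr5:72655689-72655733, plus strand, exon 12 of 23: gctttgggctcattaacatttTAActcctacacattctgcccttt

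Of 9 listed flippase partners and scramblases, 8 were analysed, with 0 higher and 2 lower in cochlear HCs and 1 higher and 2 lower in vestibular HCs. *Tmem30a*, the subunit that most flippases need to leave the endoplasmic reticulum, was at 5323.5 in cochlear HCs, 3555 in cochlear ENSCs, 2970.25 in vestibular HCs and 2115.5 in vestibular ENSCs, under 3-fold in every contrast. Scramblases let phospholipids cross in both directions. *Ano6*, a scramblase opened by calcium, had a value of 54.75 in cochlear HCs, 479.25 in cochlear ENSCs, 37.75 in vestibular HCs and 1058 in vestibular ENSCs, 8.75-fold and 28.03-fold lower in HCs. *Plscr2*, of a family named for scrambling, had a value of 82.25, 2054.75, 390.5 and 1096.5 in the same order, 25.0-fold lower in cochlear HCs, 2.81-fold lower in vestibular HCs and 4.75-fold lower in cochlear than in vestibular HCs. Other scramblase genes of the list, named after their values were seen, had other orders at low values. *Plscr4* was at 20, 51.25, 97.5 and 21, *Xkr8* at 36.25, 20, 20 and 20, *Plscr1* at 20.75, 20.25, 49.25 and 86, and *Plscr3* at 20.75, 38.75, 22.75 and 82 in the same order of libraries.

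Of the 5 P5 pump genes, none passed 3-fold between HCs and ENSCs of the cochlea, and 3 were lower in vestibular HCs than in vestibular ENSCs. *Atp13a2*, which exports polyamines from lysosomes and is mutated in a form of parkinsonism, had a value of 48 in cochlear HCs, 53.25 in cochlear ENSCs, 49.5 in vestibular HCs and 166.75 in vestibular ENSCs, 3.37-fold lower in vestibular HCs and 3.13-fold lower in cochlear than in vestibular ENSCs. Its log2 ratios of -1.75 and -1.65 became -0.54 and -0.69 after the length and GC correction, and -1.43 and -1.35 with 20 added. *Atp13a5* had a value of 22.25, 45.25, 25.75 and 132 in the same order of libraries, at least 4.33-fold lower in vestibular HCs, a log2 ratio of -2.36 that became -1.40 with a floor of 50. *Atp13a4*, named after its values were seen, was at 23 in vestibular HCs and 82.25 in vestibular ENSCs, at least 2.70-fold lower, which fell short of the threshold with a floor of 50 or 20 added. *Atp13a3*, a polyamine transporter named for the highest deposited value of its class, had 2285.5 in cochlear HCs, 3334.75 in cochlear ENSCs, 1569.5 in vestibular HCs and 2787.25 in vestibular ENSCs, under 3-fold in every contrast.

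Between the HCs of the 2 organs no member passed 3-fold. The count was 0 of 53 in either direction, where 9.30% of all genes passed (4.21% towards cochlear and 5.09% towards vestibular HCs), and the log2 ratios ran from -1.30 for *Atp6v0e2* (49.25 in cochlear and 121.5 in vestibular HCs) to 1.29 for *Atp1b2* (798 and 326). At 2-fold, 4 members were higher and 3 lower in cochlear HCs, where 10.5% of all genes were higher and 10.5% lower. Among pumps that passed 3-fold between HCs and ENSCs, the log2 ratio of cochlear to vestibular HCs was 0.24 for *Atp2b2*, 0.69 for *Atp6v0a1*, 0.93 for *Atp2b3* and -1.09 for *Atp6v1e1*.

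Between the ENSCs of the 2 organs 4 members were past 3-fold towards the cochlea (among them *Atp1b1*, *Atp2b2* and *Atp6v1b1*) and 8 towards the vestibular system (among them *Atp1b2*, *Atp2b4*, *Atp2c2*, *Atp6v0b*, *Atp6v0c*, *Atp6v1f* and *Atp13a2*), where 15.7% of all genes passed (7.80% and 7.94%). GC content moved with this contrast and with that of vestibular HCs and ENSCs. Spearman's rho of the log2 ratio with GC content was computed across all genes above the floor of 20 in both libraries, some within a tied low range. It was -0.453 for cochlear against vestibular ENSCs (10475 genes) and -0.395 for vestibular HCs against vestibular ENSCs (10358 genes). For the 2 contrasts without the vestibular ENSC library it was -0.0400 and 0.0215. These are correlations across genes of single libraries, which share library and depth and are not independent replicates. Over the members rho was -0.568 (45 genes) and -0.343 (46 genes) in the 2 contrasts with that library. Of the 8 members lower in cochlear than in vestibular ENSCs, 7 had a GC content of 50% or more, where 23 of the 53 members had. After a correction of the log2 ratios for length and GC content, 3 members were at least 3-fold lower in cochlear ENSCs, of which *Atp1b2* and *Atp2b4* (-1.78) were among the 8 and *Atp13a5* (-1.69) was not. *Atp1b2*, *Atp1b1*, *Atp2b2* and *Atp6v1b1* stayed past the threshold, at corrected log2 ratios of -2.47, 2.07, 2.33 and 4.46 between the ENSC libraries. The part of GC content in the other values was not tested beyond this correction.

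**Figure D5:**
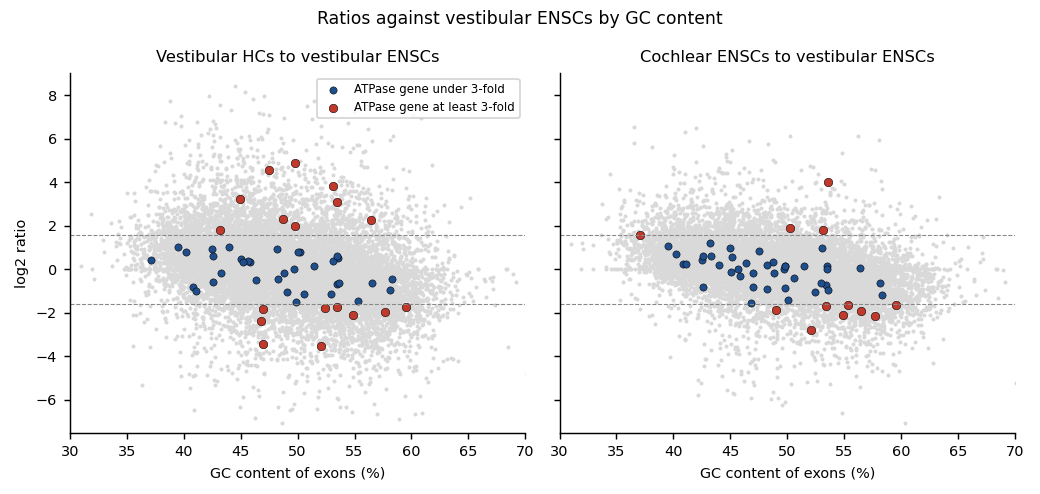
log2 ratio (vertical) against GC content of the exons in percent (horizontal) for vestibular HCs against vestibular ENSCs (left) and cochlear against vestibular ENSCs (right), 1 point per gene, with all genes in grey and ATPase genes in blue (under 3-fold) or red (at least 3-fold). Dashed lines mark a ratio of 3. In the right plot 7 of the 8 red points below the lower line lie at a GC content of 50% or more, and the grey cloud slopes down to the right in both.

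Lysosomal genes, the V-ATPase genes among them, are known targets of the factor TFEB, which binds the CLEAR element. Promoters of 34 of the 53 members, 47 in all, were matched by symbol in RefSeq (GRCm38.p6, from 250 nt before to 50 nt after the start). The core CACGTG was found in 7 of the 47, in 7 genes (*Atp1b3*, *Atp2b1*, *Atp6v0b*, *Atp6v0d1*, *Atp6v0e*, *Atp6v1a* and *Atp7a*), beside 7.15% of the 32851 promoters searched. The full palindrome GTCACGTGAC, which contains the core, was found in 1, that of *Atp2b1*, beside 0.326% of all promoters. The E-box CAGCTG was found in 5 promoters of 3 genes, beside 16.3% of all promoters. All 3 motifs are palindromes, so both strands were searched at once.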

How the data were processed

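Gene-level RNA-seq values of 4 sorted populations were analysed, 1 column each, grouped by the labels' source names. The deposited signal per gene was made by the authors, who cut reads to 50 nt, mapped them to mm9 (TopHat), counted them over ENSEMBL genes (HTSeq), applied quantile normalization and set a floor of 20. Tool versions, annotation release and strand setting are not given in the sources used here. RNA had been amplified with the NuGEN Ovation system.

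log2 ratios of the deposited values were computed without a pseudocount over 12814 genes (Python 3.11.15, pandas 2.3.3, numpy 2.4.6) and tested on simulated data. The tied low range of a library ended where the genes' median highest value in the other libraries fell to under 50% of that one step before. Exonic length, GC content and sequences came from GENCODE on NCBIM37 (mm9), which held all 53 members. The correction removed a local regression on length and then on GC content (statsmodels 0.14.6, fraction 0.3, 2 robust iterations). Alternatives were a floor of 50, 20 added to every value, centring on the median, this correction, genes with at least 100 in 1 or more libraries, the tied low range set to its top, and a ratio of 2.

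All genes of the Na,K-ATPase, H,K-ATPase, calcium pump and copper pump classes were named. Of the V-ATPase, flippase and P5 classes those past 3-fold in any contrast with at least 100 in the higher library were named, with the highest of each class, and partner genes by the same limits. Exceptions are stated, and some genes and sequences that enter the counts are not reported here. The members and lists were chosen with earlier results of these data known.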

Additional observations from a re-analysis of the deposited data

Results flagged for a closer look

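HCs and ENSCs were in the opposite order in the 2 organs for 15 of the 53 members (28.3% beside 27.0% of all genes), and for 4 of these the ratio was at least 3-fold in 1 organ (7.55% beside 6.42%). In 2 of the 4, *Atp2c2* and *Atp6v1b1*, both libraries of the other organ lay within the tied low range, and the remaining 2 are given here. The difference between the organs was not tested, since each population had 1 column. For *Atp1b2* the vestibular log2 ratio of HCs to ENSCs minus the cochlear one was -4.09, from values of 798 and 545.25 in cochlear HCs and ENSCs and 326 and 3806 in vestibular HCs and ENSCs. For *Atp6v1f* it was -2.67, from 35.75 and 24 in cochlear HCs and ENSCs against 24 and 102.75 in vestibular HCs and ENSCs, of which the vestibular HC value lay within the tied low range. Its vestibular log2 ratio of -2.10 became -1.04 with a floor of 50, -1.48 with 20 added and -1.11 after the length and GC correction.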

How the results depend on the processing

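Each count of members past 3-fold was recomputed under 7 alternatives, which gave 56 counts, of which 45 stayed within 1.5 times the reported one. With a ratio of at least 2, cochlear HCs had 14 members higher (26.4% beside 16.5% of all genes) and 8 lower (15.1% beside 17.4%) than cochlear ENSCs, vestibular HCs had 14 lower (26.4% beside 24.5%) than vestibular ENSCs, and cochlear HCs had 4 higher and 3 lower than vestibular HCs (10.5% of all genes each way). The 9 members lower in vestibular HCs than in vestibular ENSCs became 4 with a floor of 50, 4 with 20 added to every value and 6 after the length and GC correction. Of these 6, *Atp1b2*, *Atp10b*, *Atp13a4* and *Atp13a5* were among the 9 and *Atp13a3* and *Atp7a* were not. Over all genes the count of 1837 became 1352, 1297 and 1303 in the same order of settings. The 8 members lower in cochlear than in vestibular ENSCs became 4 with a floor of 50, 3 with 20 added, 3 after the length and GC correction (*Atp13a5*, which was not among the 8, being 1 of them) and 5 among genes that reached 100, the last because fewer genes were counted. Of 241 values recomputed for the 41 single calls, 202 stayed past 3-fold, 39 did not and 0 reversed. The 202 include 36 that could not change, since the limit of 100 only drops genes and leaves each ratio as deposited. Of the 41 calls, 10 ended with a floor of 50, 13 with 20 added and 13 after the length and GC correction.

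No paired analysis was possible because each population had 1 column and thus no replicate numbers to pair. A fit over the 4 columns with organ as a block, which would take the organs as replicates of each other, was not run. The floor and the tied low range limit 6 to 8 members per library, quantile normalization hides any overall shift between cell types, and GC content moved with both contrasts that use the vestibular ENSC library.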
